A study of Mus musculus with 4 samples.

Results

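A set of 8 genes that write, erase or set the supply for DNA methylation was followed in single-cell RNA libraries of mouse long-term hematopoietic stem cells (LT-HSCs). The 8 genes were chosen by name from 26687 gene symbols: the methyltransferase genes Dnmt1, Dnmt3a and Dnmt3b, the dioxygenase genes Tet1, Tet2 and Tet3, and the isocitrate dehydrogenase genes Idh1 and Idh2. All 8 were detected in all 4 libraries and passed the floor of a mean of 5 CPM (UMIs scaled to the library total). A UMI, or unique molecular identifier, tags 1 captured RNA molecule. The cells came from crushed limb bones and sternum of C57BL/6 mice aged 8 to 11 weeks and were sorted by flow cytometry before 10x Genomics 3' v2 capture. There was 1 library for each of 4 genotypes: the reference control Mx (labelled MxCRE), the single mutants NPMc+ and Flt3-ITD, and the double mutant NPMc+/Flt3-ITD. NPMc+ is the cytoplasmic mutant form of nucleophosmin, Flt3-ITD is an internal tandem duplication that activates the Flt3 receptor, and both are known from acute myeloid leukemia. The labels name MxCRE only for the control, and give neither the number of mice per library nor an induction scheme. With 1 library per genotype no spread between mice could be estimated. Genotype and library therefore cannot be told apart, no p-values were computed, and the 95% intervals given cover counting error only.

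DNA methylation in mammals sits mostly on the cytosine of CpG dinucleotides. Dnmt1 copies the marks onto the new strand after replication, while Dnmt3a and Dnmt3b place marks on unmethylated sites. Tet1, Tet2 and Tet3 oxidise 5-methylcytosine, a first step of its removal, and use 2-oxoglutarate as co-substrate. Idh1 in the cytosol and Idh2 in mitochondria make 2-oxoglutarate from isocitrate; leukemia-associated mutant forms make 2-hydroxyglutarate instead, which inhibits the Tet enzymes. In blood stem cells, loss of Dnmt3a or Tet2 is known to favour self-renewal, and DNMT3A, TET2, IDH1 and IDH2 are often mutated in human leukemias that carry NPM1 or FLT3 lesions. The count tables show RNA levels of these genes and hold neither methylation nor mutation data.

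The 4 libraries held 2519, 2375, 2393 and 3321 kept cells and 20943905, 25070675, 21982925 and 26965367 UMIs, with Mx first, then NPMc+, then Flt3-ITD, then NPMc+/Flt3-ITD, an order used throughout. Median depth per cell was 8094, 9466, 8661 and 7323 UMIs. Barcodes shared between kept cells of different libraries numbered 52 over all pairs. The LT-HSC label was read against 11 stem cell markers such as Procr, Hlf and Mecom, all of which were detected in all 4 libraries. At least 3 UMIs of the set were found in 93.0%, 90.1%, 84.8% and 56.8% of cells, and the summed level was 1185, 937, 759 and 492 CPM. The 6 progenitor markers Flt3, Cd34, Cd48, Cd27, Dntt and Il7r ran the other way, at 494, 442, 754 and 1768 CPM. At least 3 of their UMIs were found in 60.0%, 62.8%, 76.1% and 93.0% of cells. The NPMc+ and NPMc+/Flt3-ITD libraries stood apart in markers of other lineages. The 11 T-lineage markers, such as Tcf7, Bcl11b and Trbc1, summed to 45.9, 58.1, 54.3 and 1615 CPM, and 66.1% of NPMc+/Flt3-ITD cells held at least 3 of their UMIs against 0.754%, 3.96% and 2.55%. Cd3e stood lowest of that set in NPMc+/Flt3-ITD, at 0.185 CPM. The 7 megakaryocyte markers summed to 217, 794, 187 and 119 CPM, with 47.1% of NPMc+ cells at 3 UMIs or more; Gp6 stood at 0 in all libraries but Flt3-ITD. The immunoglobulin light chain gene Igkc was found in 41.3% of NPMc+ cells at an equal depth of 3000 UMIs, against 0.13%, 3.08% and 0.535% in the others, and its part in the results was not tested. Cells with a Y-linked UMI and no Xist numbered 1218, 1155, 987 and 2425, and cells with the reverse 583, 495, 773 and 179. UMIs of both kinds were found in 208, 283, 227 and 66 cells, and of neither in 510, 442, 406 and 651. Cells with both or neither are left out where male and female cells are read.

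Promoter sequence is shown for the 4 members that differed most in level below: Dnmt3b, Idh1 and Idh2, which were all highest in NPMc+/Flt3-ITD, and Tet1, which was highest in Mx. CpG sites, on which the Dnmt and Tet enzymes act, are in capitals. Each run reads 5′ to 3′ on the gene's strand and lies outside GENCODE M21 exons. The letters are from the RefSeq promoter table of GRCm38.p6. The runs of Dnmt3b, Idh1 and Idh2 lie outside the GENCODE gene, while that of Tet1 lies before its RefSeq start but inside the longer GENCODE gene, in an intron. The study's tables measure RNA and say nothing of methylation at these sites.
Dnmt3b, plus strand, chr2:153649199-153649448: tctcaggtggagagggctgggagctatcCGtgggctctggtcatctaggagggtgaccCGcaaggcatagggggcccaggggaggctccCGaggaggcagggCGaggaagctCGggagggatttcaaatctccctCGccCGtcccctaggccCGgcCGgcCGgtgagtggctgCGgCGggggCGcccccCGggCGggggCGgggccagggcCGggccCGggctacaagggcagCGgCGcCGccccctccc
Idh1, minus strand, chr1:65186501-65186682: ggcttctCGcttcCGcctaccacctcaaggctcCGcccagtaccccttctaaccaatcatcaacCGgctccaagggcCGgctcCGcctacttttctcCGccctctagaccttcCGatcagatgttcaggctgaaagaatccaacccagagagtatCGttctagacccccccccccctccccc
Idh2, minus strand, chr7:80115393-80115600: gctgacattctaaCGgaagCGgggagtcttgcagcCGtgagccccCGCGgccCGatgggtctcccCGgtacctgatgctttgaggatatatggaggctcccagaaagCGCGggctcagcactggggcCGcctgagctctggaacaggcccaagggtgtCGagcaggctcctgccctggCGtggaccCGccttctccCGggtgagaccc
Tet1, minus strand, chr10:62887325-62887412: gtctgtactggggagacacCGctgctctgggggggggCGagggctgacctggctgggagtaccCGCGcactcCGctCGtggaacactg
These runs hold 21 CpG sites in 250 bases for Dnmt3b, 9 in 182 for Idh1, 14 in 208 for Idh2 and 6 in 88 for Tet1. Over the whole 250 bases before each RefSeq start, the 13 windows of the 8 genes held from 2 to 51 CpG sites, against a median of 6 over 32851 mouse windows. The lowest was a window of Dnmt1 and the highest that of Tet2, at percentile 99.9 of all windows. The letters TTTCCCGC, TTTGGCGC and TTTCGCGC, which E2F factors of the G1/S transition can bind, were searched on both strands; each contains a CpG, so a match also adds to the CpG count. A match was found in 1 of the 13 windows, that of a Dnmt1 start, as GCGCGAAA 219 bases before the start, and in 1.53% of all windows.

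Tet1 was the member furthest below the control in each mutant library, and Dnmt3b, Idh1 and Idh2 were the members at least 1.5-fold higher in NPMc+/Flt3-ITD. A ratio of at least 1.5-fold was used as the mark of a difference of size, and counts are read against all 10234 genes with a mean of 5 CPM or more. In NPMc+ against Mx 0 members were 1.5-fold higher (4.9% of all genes) and 2 were lower, Tet1 and Tet2 (12.8% of all genes). In Flt3-ITD 0 members were higher (5.19%) and 1 was lower, Tet1 (10.2%). In NPMc+/Flt3-ITD 3 were higher (12.8%) and 1 was lower (12.2%). Against NPMc+, the NPMc+/Flt3-ITD library had the same 3 members higher (14.4%) and 0 lower (8.64%), and against Flt3-ITD it had 1 higher, Idh1 (14.3%), and 0 lower (8.76%). All 8 members stood below the control in NPMc+ (57.2% of all genes did), 5 did in Flt3-ITD (64.0%) and 3 in the double mutant (38.4%). The members' median log2 ratio to Mx was -0.40, -0.17 and 0.15 in the mutants, beside -0.06, -0.10 and 0.14 over all genes. The 3 comparisons with Mx share that library.

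**Figure D1:**
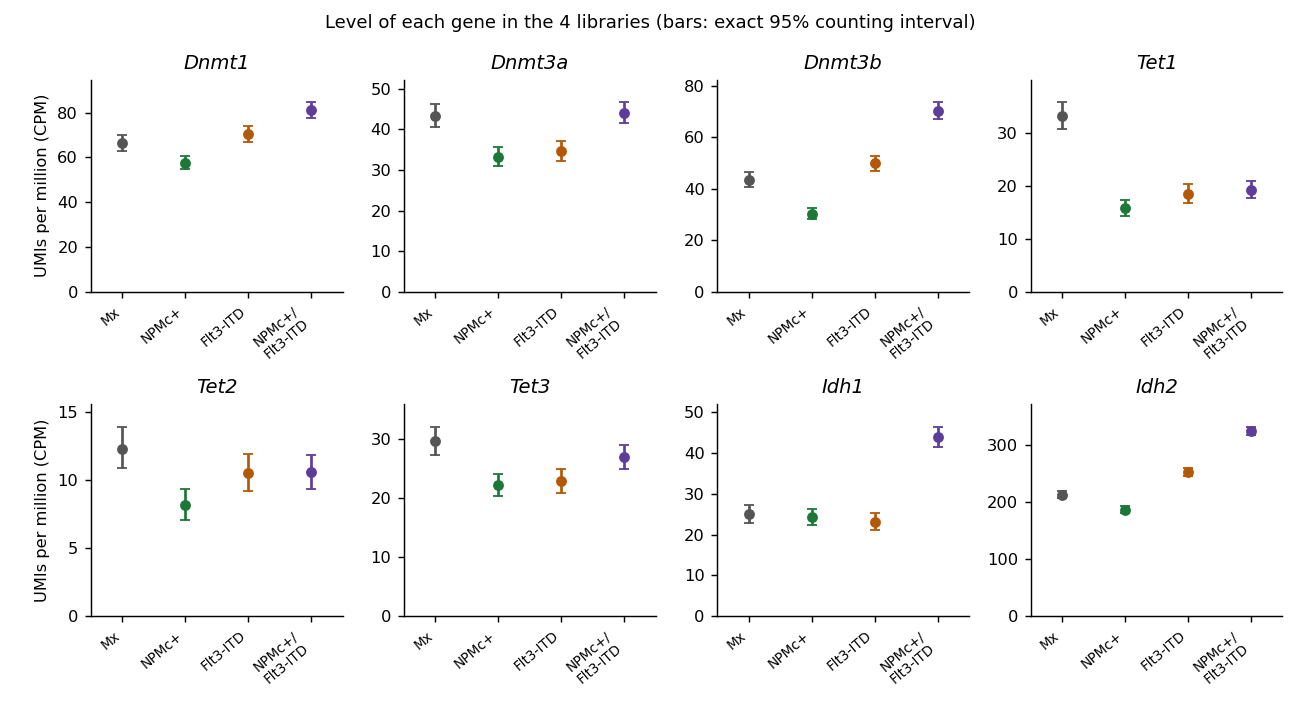
Level of each of the 8 genes in the 4 libraries, in CPM; points are library values and bars exact 95% counting intervals, with a separate linear scale from 0 for each gene. Tet1 is highest in Mx at 33.1 CPM, and Dnmt3b, Idh1 and Idh2 are highest in NPMc+/Flt3-ITD at 70.4, 43.9 and 325 CPM.

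Among the writers, Dnmt3b separated the libraries most. Dnmt3b (chromosome 2, 153649450 to 153687730, plus strand, mm10) was measured at 43.6 CPM in the control, against 30.3 and 49.9 for the single mutants NPMc+ and Flt3-ITD and 70.4 for the double mutant. These levels rest on 913, 760, 1097 and 1898 UMIs, and no 2 of the counting intervals overlapped. The ratio to Mx was 1.44-fold lower in NPMc+ (1.30 to 1.59), 1.14-fold higher in Flt3-ITD (1.05 to 1.25) and, highest of all, 1.61-fold higher in NPMc+/Flt3-ITD (1.49 to 1.75). NPMc+/Flt3-ITD stood 2.32-fold above NPMc+ (2.13 to 2.53) and 1.41-fold above Flt3-ITD (1.31 to 1.52). In female cells alone the direction against Flt3-ITD turned, at 49.1 against 52.4 CPM, or log2 -0.10. At an equal depth of 3000 UMIs per cell, a Dnmt3b UMI was found in 11.7%, 8.84%, 12.6% and 18.3% of cells, and in 28.8%, 25.7%, 34.0% and 37.2% without thinning. As a background, 8 genes of other cell types that stem cells should lack were read at the same depth. Over the libraries the lymphocyte genes Cd79a and Cd3e were found in 0.0334% to 0.184% of cells, the granule genes Ngp and Camp in 0.138% to 0.602%, and the liver gene Alb in 0.936% to 1.25%. The globin genes Hbb-bs and Hba-a1 reached 3.2% and 0.903%, Hbb-bs in NPMc+. Igkc, at 41.3% of NPMc+ cells, stood above the share of every member there, so against that gene no member's share in NPMc+ lies above background. Against the other genes only that of Tet2 in NPMc+ does not, in the thinning draw used.

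Dnmt3a, the other de novo methyltransferase gene (chromosome 12, 3806007 to 3914443, plus strand, mm10), fell into 2 levels. It stood at 43.4 CPM in Mx and 44.1 in NPMc+/Flt3-ITD, whose intervals overlapped, and at 33.3 and 34.6 in the single mutants NPMc+ and Flt3-ITD, which overlapped as well. The ratio was 1.30-fold lower in NPMc+ (1.19 to 1.43) and 1.26-fold lower in Flt3-ITD (1.14 to 1.38). In NPMc+/Flt3-ITD it was 1.02-fold higher (0.93 to 1.11), and lower under either other scaling, with log2 ratios of -0.01 and -0.16. Dnmt3b made up 50.1% of the UMIs of the de novo pair in the control (47.8 to 52.4%) and 47.7% in NPMc+ (45.2 to 50.2%). It made up 59.1% in Flt3-ITD (56.8 to 61.3%) and 61.5% in the double mutant (59.8 to 63.2%). This share does not depend on the scaling of a library, and it was higher in both libraries with Flt3-ITD than in both without. Whether a UMI of 1 of the pair goes with a UMI of the other in a cell was counted at 3000 UMIs. Both were found in 31, 28, 27 and 74 cells, where the product of their shares gives 32.0, 18.2, 27.6 and 72.6.

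Dnmt1, the maintenance methyltransferase gene (chromosome 9, 20907209 to 20959888, minus strand, mm10), had levels of 66.4, 57.5, 70.4 and 81.0 CPM, in the order of libraries given above. The Mx and Flt3-ITD intervals overlapped, NPMc+ lay below them and NPMc+/Flt3-ITD above. The ratio to Mx was 1.15-fold lower (1.07 to 1.24), 1.06-fold higher (0.986 to 1.14) and 1.22-fold higher (1.14 to 1.31). Summed over the 3 methyltransferase genes the level was 153, 121, 155 and 195 CPM.

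Among the erasers, Tet1 (chromosome 10, 62804570 to 62908996, minus strand, mm10) reached 33.1 CPM in the control, but 15.8, 18.5 and 19.2 CPM in the mutants, from 694, 395, 407 and 518 UMIs. The control interval of 30.7 to 35.7 CPM lay above all 3 mutant intervals, of which that of Flt3-ITD overlapped both others. Tet1 was 2.10-fold lower in NPMc+ (1.86 to 2.39), 1.79-fold lower in Flt3-ITD (1.58 to 2.03) and 1.72-fold lower in the double mutant (1.54 to 1.94). The share of cells with a Tet1 UMI at 3000 UMIs was 9.22%, 5.38%, 5.56% and 6.02%, and 23.0%, 15.2%, 15.3% and 13.8% without thinning. No cell held more than 4 Tet1 UMIs. With cells marked by any of the T-lineage, B, erythroid, megakaryocyte or granule sets left out, which kept 12.7% to 26.0% of cells, Tet1 in NPMc+ was 1.38-fold lower, short of 1.5-fold. In NPMc+/Flt3-ITD it was then 1.47-fold lower, also short of it, and in Flt3-ITD 1.68-fold lower. Tet1 made up 44.1% of the UMIs of the Tet genes in Mx (41.7 to 46.6%) and 34.2%, 35.7% and 33.9% in the mutants, whose upper limits reached at most 38.6%.

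Tet2, the family member most often mutated in myeloid disease (chromosome 3, 133463679 to 133545139, minus strand, mm10), had the fewest UMIs of the 8 genes, from 204 to 285 per library. Its level was 12.3 CPM in the control and 8.14, 10.5 and 10.6 CPM in the mutants. The NPMc+ value was 1.51-fold lower than Mx (1.26 to 1.83), just past the mark of 1.5-fold, and its interval reaches well inside it. Its share of cells at 3000 UMIs in NPMc+, 2.49% (1.89 to 3.22%), lay below the 3.2% of Hbb-bs there (2.51 to 4.01%). It is read as background, but these intervals overlap, and another thinning draw gave Tet2 3.29%, so this reading depends on the draw. At least 3 erythroid UMIs were found in 6.36% of NPMc+ cells, so Hbb-bs may not be background alone there. The ratios of 1.17-fold lower, with intervals of 0.978 to 1.41 in the Flt3-ITD library and 0.981 to 1.38 in the double mutant, were not detectable as differences at this depth. In shares of cells at 3000 UMIs the NPMc+/Flt3-ITD library stood above Mx, at 4.08% (3.40 to 4.85%) against 3.63% (2.91 to 4.48%). In this draw it was the only 1 of 24 share differences with Mx that went against the CPM, and no order is read from it. In another draw Tet3 in NPMc+/Flt3-ITD did so too, at 8.46% against 7.53%. At 2000 UMIs Idh1 did so in NPMc+ (5.33%) and Flt3-ITD (4.92%), against 4.66% in Mx. Tet2 in Flt3-ITD did so there by a hair, at 2.417% against 2.414% in Mx. At 5000 UMIs Dnmt1 did so in Flt3-ITD, at 24.3% against 25.3% in Mx. Dnmt3a in NPMc+/Flt3-ITD did so at that depth, at 19.3% against 20.1% in Mx.

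Tet3 (chromosome 6, 83362373 to 83459084, minus strand, mm10) had 29.6 CPM in the control, then 22.1, 22.8 and 26.9 CPM in the mutants. NPMc+ was 1.34-fold lower (1.19 to 1.502) and Flt3-ITD 1.30-fold lower (1.15 to 1.46), while the 1.10-fold lower value of NPMc+/Flt3-ITD had an interval that includes no difference (0.988 to 1.23). All 3 Tet genes stood highest in Mx, and their summed level was 75.1, 46.0, 51.9 and 56.7 CPM.

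Idh1 (chromosome 1, 65158616 to 65186500, minus strand, mm10) set NPMc+/Flt3-ITD apart from the other 3 libraries. It stood at 25.0, 24.3 and 23.2 CPM in the first 3, with overlapping intervals, and at 43.9 CPM in the double mutant. The last value was 1.75-fold above Mx (1.58 to 1.95), 1.81-fold above NPMc+ (1.64 to 1.9998) and 1.89-fold above Flt3-ITD (1.70 to 2.10). A UMI was found in 8.35%, 6.93%, 6.62% and 12.7% of cells at 3000 UMIs, and in 18.0%, 21.3%, 18.6% and 28.3% without thinning. For NPMc+ and Flt3-ITD the small ratios to Mx, 1.03-fold (0.916 to 1.16) and 1.08-fold lower (0.953 to 1.22), changed sign under TMM scaling, to log2 0.10 and 0.04.

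Idh2, the mitochondrial enzyme gene (chromosome 7, 80094846 to 80115392, minus strand, mm10), held the most UMIs of the 8 genes, from 4452 to 8756 per library. Its levels were 213, 187, 252 and 325 CPM, with no overlap between intervals. NPMc+ was 1.14-fold lower (1.09 to 1.19), Flt3-ITD 1.18-fold higher (1.14 to 1.23) and NPMc+/Flt3-ITD 1.53-fold higher (1.47 to 1.58). NPMc+/Flt3-ITD also stood 1.74-fold above NPMc+ (1.68 to 1.80) and 1.29-fold above Flt3-ITD (1.25 to 1.33). At 3000 UMIs per cell an Idh2 UMI was found in 43.4%, 41.2%, 51.3% and 60.2% of cells. Idh1 made up 10.5%, 11.5%, 8.43% and 11.9% of the UMIs of the pair. Over all 8 genes, a cell thinned to 3000 UMIs held UMIs of 1.13, 0.936, 1.119 and 1.41 members on average, and none of them in 26.6%, 33.9%, 25.5% and 17.9% of cells.

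**Figure D2:**
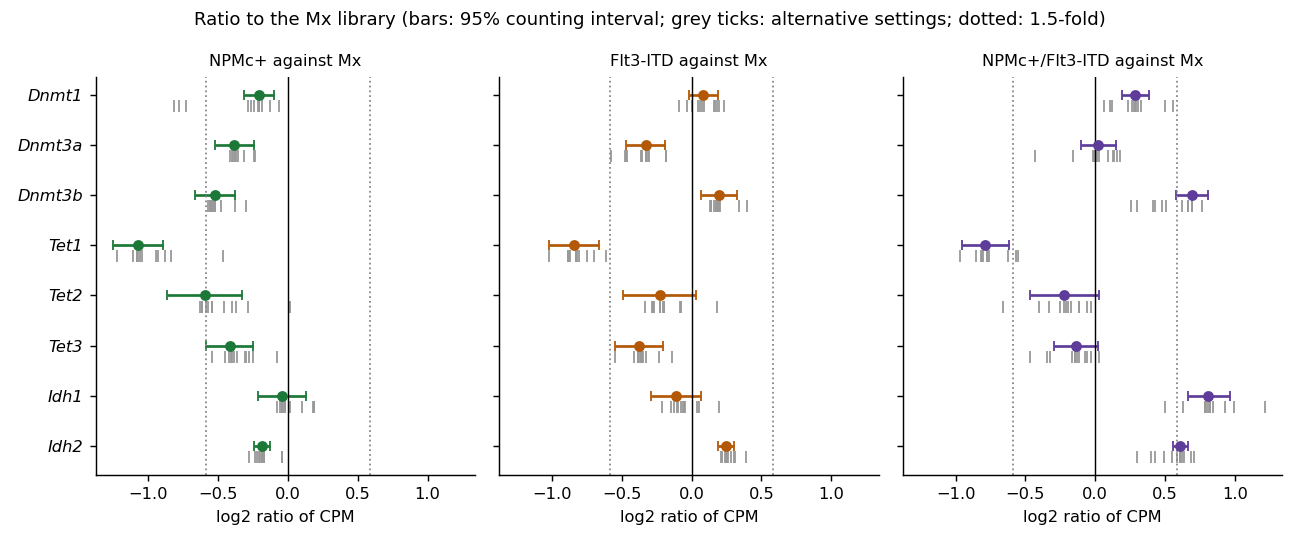
Log2 ratio of CPM to the Mx library for each gene, with 95% counting intervals; grey ticks give the ratio under alternative settings (scaling, cell filters, cells of a lineage or sex left out), and dotted lines mark 1.5-fold. Every tick of Tet1 lies below 0 in the 3 comparisons, and every tick of Dnmt3b, Idh1 and Idh2 above 0 in NPMc+/Flt3-ITD.

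Dnmt1 differed most between cells rich and poor in S phase transcripts. Cells thinned to 3000 UMIs were called rich with at least 8 UMIs of 34 S phase genes such as Mcm2 and Pcna, a list without the 8 members. The cut is the 75th percentile over all thinned cells and marks a range of a score, not a cell type. Rich cells made up 20.3%, 20.3%, 28.7% and 30.8% of cells, and 60, 59, 60 and 152 cells lay at the cut. Dnmt1 stood at 133 CPM in rich against 42.9 in poor control cells, and 112 against 32.0, 107 against 39.4 and 118 against 46.2 CPM in the mutants. The rich cells were 3.09-fold (2.54 to 3.76), 3.51-fold (2.81 to 4.39), 2.71-fold (2.21 to 3.33) and 2.55-fold higher (2.17 to 3.002). Idh2 was higher in rich cells as well, by 1.39-fold, 1.30-fold, 1.35-fold and 1.09-fold.

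Tet1 and Idh1 ran the other way. Tet1 was 1.69-fold (1.15 to 2.55), 1.47-fold (0.887 to 2.58), 1.58-fold (1.01 to 2.56) and 1.67-fold lower (1.16 to 2.44) in rich than in poor cells. Idh1 was 1.47-fold (0.995 to 2.25), 1.76-fold (1.11 to 2.93), 2.10-fold (1.35 to 3.40) and 1.40-fold lower (1.11 to 1.77). Tet2 was also lower in rich cells of NPMc+/Flt3-ITD, by 1.87-fold (1.19 to 3.06). Dnmt3a was lower in those of Mx, by 1.40-fold (1.02 to 1.97), and of NPMc+/Flt3-ITD, by 1.39-fold (1.11 to 1.75). In the remaining libraries the intervals of Tet2 and Dnmt3a included no difference. Tet2 was higher in rich cells of Mx and NPMc+, and Dnmt3a in those of Flt3-ITD. Dnmt3b differed between rich and poor cells beyond its interval in NPMc+/Flt3-ITD, at 85.8 against 61.0 CPM, or 1.41-fold higher (1.19 to 1.66). In poor cells alone Tet1 stayed below Mx, by log2 -1.09, -0.88 and -0.76 on unthinned counts. There the log2 ratio of NPMc+/Flt3-ITD to Mx was 0.48 for Dnmt3b, 0.79 for Idh1 and 0.71 for Idh2, so Dnmt3b, at 1.40-fold higher, was no longer past 1.5-fold. The S phase list itself summed to 2221, 2190, 2673 and 2916 CPM.

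**Figure D3:**
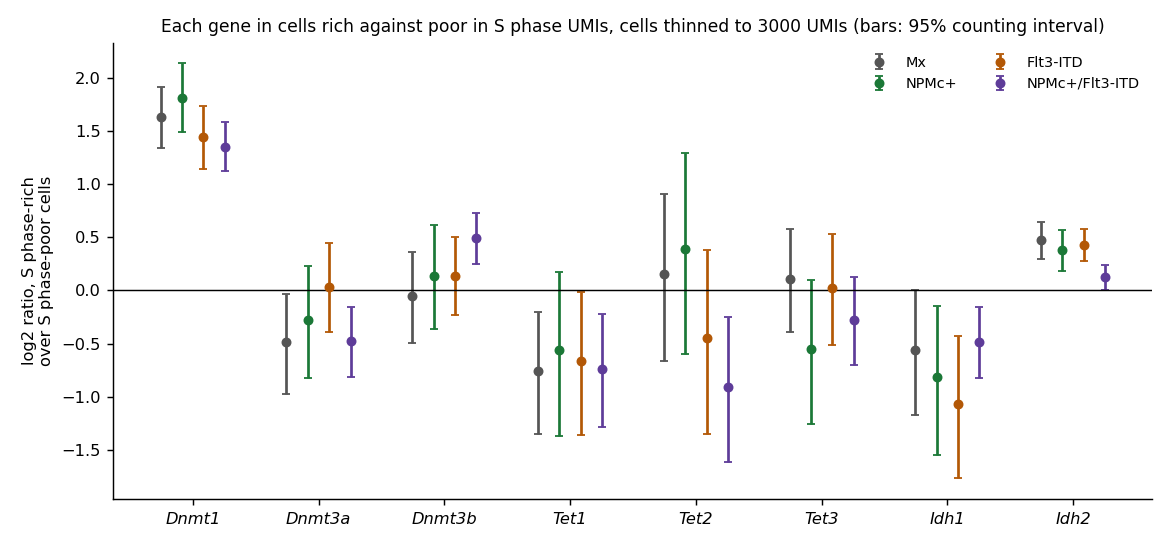
Log2 ratio of each gene between cells rich and poor in S phase UMIs, per library, with cells thinned to 3000 UMIs and bars giving 95% counting intervals. Dnmt1 lies between 1.35 and 1.81 in the 4 libraries, and Tet1 and Idh1 lie below 0 in all of them.

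The NPMc+/Flt3-ITD values of Dnmt3b and Idh2 moved with more than 1 marker set. In that library the 2195 cells with at least 3 T-lineage UMIs, of median depth 8585 UMIs, held Dnmt3b at 74.5 CPM. The other 1126 cells, of median depth 6250 UMIs, held it at 58.7, a ratio of 1.27-fold (1.14 to 1.42). Idh2 stood at 341 against 280 CPM, 1.22-fold higher with the markers (1.16 to 1.28). Dnmt1 stood at 84.3 against 71.7 CPM, 1.18-fold higher (1.06 to 1.30). Tet1 stood at 18.1 against 22.3 CPM, 1.23-fold lower with the markers (1.02 to 1.49). Idh1 stood at 42.5 against 47.9 CPM, a ratio of 1.13-fold lower whose interval includes no difference (0.990 to 1.28). The Dnmt3b ratio was larger for the granule, B cell and progenitor sets of the same library, but not for the stem cell and megakaryocyte sets. It stood at 80.9 CPM in cells with at least 3 UMIs of the granule set and at 52.9 in the others, 1.53-fold apart (1.38 to 1.69), with median depths of 9924 and 5481 UMIs. In the 68 cells with B cell markers it was 1.49-fold higher (1.19 to 1.83). With the progenitor set Dnmt3b was 1.36-fold higher (1.01 to 1.87) and Idh2 1.29-fold higher (1.13 to 1.48), at median depths of 7702 and 3034 UMIs. Idh2 was also higher with that set in Mx (1.21-fold), NPMc+ (1.26-fold) and Flt3-ITD (1.23-fold). No setting left out cells by the progenitor set. In NPMc+/Flt3-ITD the stem cell set gave a smaller Dnmt3b ratio, 1.19-fold higher (1.08 to 1.32). With the megakaryocyte set Dnmt3b stood lower, at 63.7 against 71.3 CPM, with no difference inside the interval. With at least 5 megakaryocyte UMIs it was 1.40-fold lower (1.09 to 1.84). Idh2 was lower with the megakaryocyte set, by 1.10-fold (1.02 to 1.17), and with the stem cell set, by 1.06-fold (1.01 to 1.11). With the T-lineage-marked cells left out of all libraries, NPMc+/Flt3-ITD stood above Mx by log2 0.43 for Dnmt3b, 0.40 for Idh2 and 0.93 for Idh1, so Idh1 alone stayed past 1.5-fold. Tet1 stood at log2 -0.57 without them, just short of 1.5-fold. The remaining difference was therefore present in cells with few T-lineage UMIs, at a smaller size for Dnmt3b, Idh2 and Tet1.

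Cells with at least 3 UMIs of the stem cell markers gave higher values in NPMc+/Flt3-ITD than in Mx for Dnmt3b, Idh1 and Idh2 and lower values for Tet1. In the 2343 such control cells and the 1887 of NPMc+/Flt3-ITD, Dnmt3b stood at 43.3 and 74.3 CPM and Idh1 at 25.6 and 44.1. Idh2 stood at 211 and 319 CPM and Tet1 at 32.9 and 18.7. Within NPMc+/Flt3-ITD, cells with and without the markers held Idh1 at 44.1 and 43.5 CPM, 1.01-fold apart (0.896 to 1.15), and Dnmt3b at 74.3 and 62.4, 1.19-fold apart (1.08 to 1.32). Tet2 stood at 9.32 against 13.1 CPM, 1.41-fold lower in the marked cells (1.10 to 1.80). With at least 5 marker UMIs the Dnmt3b and Tet2 ratios were 1.05-fold (0.957 to 1.15) and 1.198-fold (0.941 to 1.53), both with no difference inside the interval.

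Dnmt1 moved with the megakaryocyte markers most clearly in NPMc+, and with other marker sets too. In NPMc+ it stood at 72.5 CPM in the 1118 cells with at least 3 megakaryocyte UMIs and at 33.8 in the others, 2.14-fold apart (1.89 to 2.43). The same contrast gave 91.8 against 56.1 CPM in the control, 92.6 against 64.1 in Flt3-ITD and 93.0 against 79.4 in the double mutant. With the granule set Dnmt1 was 1.56-fold higher in NPMc+/Flt3-ITD (1.42 to 1.72), a larger ratio than the megakaryocyte set gave there, but 1.22-fold lower in Mx (1.09 to 1.37) and 1.21-fold lower in NPMc+ (1.09 to 1.35). With the erythroid set it was 1.42-fold higher in NPMc+ (1.22 to 1.65). Megakaryocyte-marked cells were deeper, with medians of 12222 against 7445 UMIs in NPMc+. Without the megakaryocyte-marked cells Dnmt1 stood at log2 -0.73 in NPMc+ against Mx, past 1.5-fold, beside -0.21 with them. Tet1 in NPMc+ stood at 13.8 CPM with the markers and 18.9 without, and its log2 ratio to Mx was -0.88 once the marked cells were left out. Both Tet2 and Idh1 were lower in marked NPMc+ cells too, Tet2 at 6.70 against 10.4 CPM and Idh1 at 21.01 against 29.4. At this cut of 3 UMIs both genes were lower in marked cells of every library. Outside NPMc+ the interval excluded no difference only for Tet2 in Mx, 1.43-fold lower (1.06 to 1.96), and Idh1 in Flt3-ITD, 1.48-fold lower (1.17 to 1.90). With at least 5 megakaryocyte UMIs Idh1 was again lower in marked cells of every library. Tet2 was then lower in those of Mx and NPMc+ only. It was higher in Flt3-ITD, at 11.6 against 10.4 CPM, and in NPMc+/Flt3-ITD, at 11.5 against 10.5, with no difference inside either interval.

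**Figure D4:**
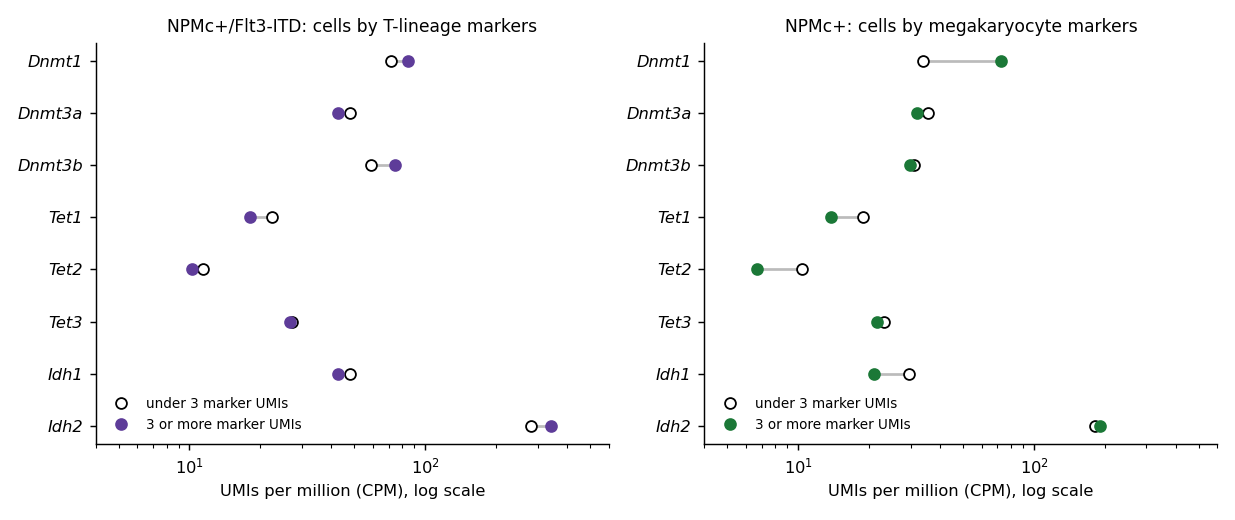
Level of each gene, in CPM on a log scale, in cells with at least 3 (filled) and under 3 (open) marker UMIs: T-lineage markers in NPMc+/Flt3-ITD on the left, megakaryocyte markers in NPMc+ on the right. Dnmt3b and Idh2 are higher in T-lineage-marked cells, and Dnmt1 is higher in megakaryocyte-marked cells, at 72.5 against 33.8 CPM.

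The sexes were unequally represented, so the 4 members with the largest differences were read in each. Tet1 was lower in the mutants in both: in male cells it stood at 33.2, 17.2, 16.4 and 19.0 CPM, and in female cells at 32.4, 13.9, 21.1 and 19.0. Idh1 in NPMc+/Flt3-ITD against Mx stood at 44.6 against 25.2 CPM in male cells and at 34.7 against 24.5 in female cells. Dnmt3b stood at 73.1 against 43.0 CPM in male and 49.1 against 39.8 in female cells. Idh2 stood at 335 against 217 CPM in male and 250 against 203 in female cells. In female cells these 3 log2 ratios were 0.50, 0.30 and 0.30, so 0 members were past 1.5-fold higher there, from 53, 75 and 382 UMIs of 179 cells.

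Genes around the 8 members were read from 5 lists of 76 genes, of which 69 passed the floor. At least 1.5-fold higher and lower were 3 and 5 of them for NPMc+, 2 and 4 for Flt3-ITD, and 9 and 2 for the double mutant, with median log2 ratios of 0.00, 0.00 and 0.29. Over all genes the shares higher and lower were 4.9% and 12.8%, 5.19% and 10.2%, and 12.8% and 12.2%, with medians of -0.06, -0.10 and 0.14. The counts of higher genes lie near or under these shares, and those of lower genes under them. Among 15 measured methylation partners and readers, 0, 0 and 0 were higher (4.9%, 5.19% and 12.8% of all genes) and 2, 3 and 1 lower (12.8%, 10.2% and 12.2%). The methyl-CpG-binding domain gene Mbd5 stood at 9.26, 4.91, 5.64 and 5.86 CPM, 1.89-fold lower in NPMc+ (1.499 to 2.39) and 1.58-fold lower in NPMc+/Flt3-ITD (1.27 to 1.96). The zinc finger readers of methylated DNA Zbtb4 and Zbtb33 were 1.96-fold (1.59 to 2.43) and 1.83-fold lower (1.39 to 2.43) in Flt3-ITD. Hells, a remodeller that helps the methyltransferases, stood at 44.9, 27.8, 49.7 and 44.7 CPM.

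Tet partners were few. Of 5 measured, 2, 1 and 0 were lower than in Mx (12.8%, 10.2% and 12.2% of all genes) and 0 were higher in each mutant (4.9%, 5.19% and 12.8%). Ogt, the O-GlcNAc transferase gene whose product binds Tet proteins, stood at 199, 116, 112 and 244 CPM. It was 1.71-fold lower in NPMc+ (1.63 to 1.79) and 1.77-fold lower in Flt3-ITD (1.69 to 1.86). In the demethylation and repair list of 11 measured genes, the stress-induced Gadd45 genes differed most. Gadd45g stood at 18.5, 44.0, 16.0 and 10.6 CPM, highest in NPMc+ at 2.38-fold (2.12 to 2.68) and 1.74-fold lower in NPMc+/Flt3-ITD (1.49 to 2.04). Gadd45b stood at 30.5, 20.5, 71.8 and 37.6 CPM, highest in Flt3-ITD at 2.36-fold (2.15 to 2.59).

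Supply of methyl groups and of 2-oxoglutarate was read from the other lists. Of 13 measured methyl donor genes 2, 1 and 3 were higher (4.9%, 5.19% and 12.8% of all genes) and 1, 0 and 0 lower (12.8%, 10.2% and 12.2%). Ahcy, which clears the S-adenosylhomocysteine left by methyltransferases, stood at 22.7, 34.5, 37.6 and 31.6 CPM and was 1.66-fold higher in Flt3-ITD (1.48 to 1.86). The folate cycle gene Mthfd2 stood at 10.7, 19.0, 14.2 and 17.4 CPM, 1.77-fold higher in NPMc+ (1.51 to 2.08). The serine hydroxymethyltransferase gene Shmt1 stood at 27.3, 34.4, 32.6 and 46.4 CPM, 1.70-fold higher in NPMc+/Flt3-ITD (1.54 to 1.88). In the 2-oxoglutarate and TCA cycle list, 0 of 25 genes passed 1.5-fold in NPMc+ or Flt3-ITD in either direction, and in NPMc+/Flt3-ITD 4 were higher and 0 lower. With 12.8% of all genes higher in that comparison, a count of 4 of 25 is near the background. The 4 were the malate dehydrogenase genes Mdh1 and Mdh2 (1.56-fold and 1.52-fold) and the succinyl-CoA ligase genes Suclg1 and Sucla2 (1.65-fold and 1.55-fold). The median log2 ratio of the 25 genes was 0.37 there, beside 0.14 over all genes.

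**Figure D5:**
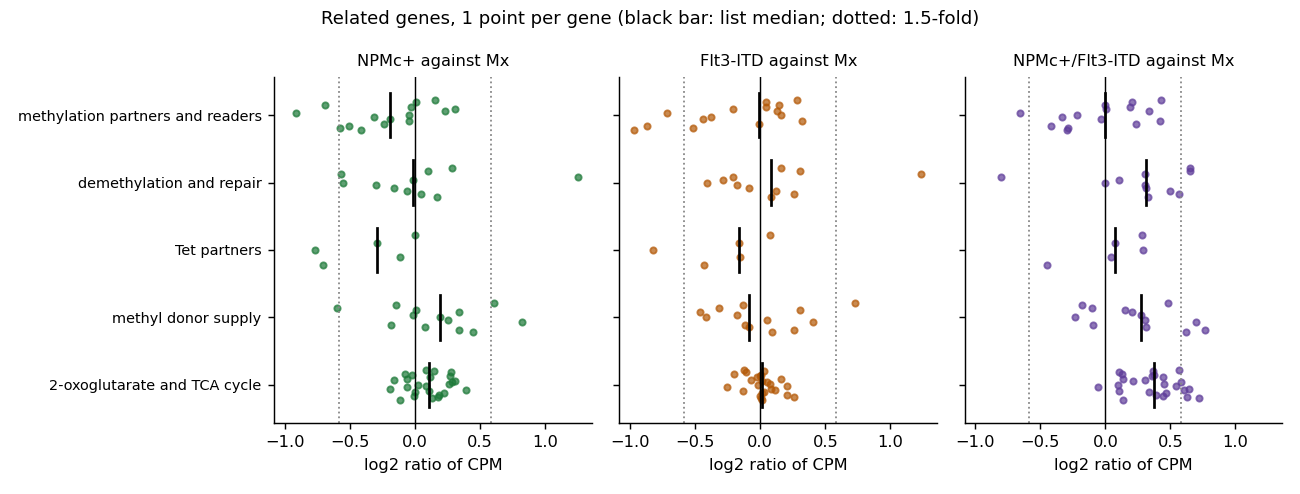
Log2 ratio of CPM to the Mx library for 69 genes of 5 related lists, with 1 point per gene, black bars at list medians and dotted lines at 1.5-fold. In NPMc+/Flt3-ITD the 25 genes of the 2-oxoglutarate and TCA cycle list have a median of 0.37, and 4 of them lie past 1.5-fold.

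The genes most like the 2 widest-ranging members across the 4 libraries were looked up among 5986 genes with a mean of 20 CPM or more. Dnmt3b ranged 2.32-fold and Tet1 2.10-fold from lowest to highest library. Nearest to Dnmt3b was Ramp1, a receptor activity-modifying protein gene, at 391, 262, 442 and 631 CPM, with a root mean square difference of 0.02 in centred log2 CPM. Fam69b (0.05) and Zfp422 (0.06) came next, and 12 genes lay within 0.1. Nearest to Tet1 were the chromatin remodeller gene Chd9 (0.04), at 81.7, 39.2, 49.0 and 48.0 CPM, the nuclear receptor gene Nr2c2 (0.06) and Retreg1 (0.07), and 10 genes lay within 0.1. The likeness is over 4 libraries only.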

How the data were processed

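Single-cell RNA was measured in 4 libraries of sorted mouse LT-HSCs, 1 per genotype. The deposited values are UMI counts per gene and barcode, whole numbers that were not normalized. The submitters' processing notes name STARsolo, STAR 2.7.0c and the mm10 build; the annotation is not given in the sources used here.

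Cells with at least 1000 UMIs, 500 genes and at most 10% mitochondrial UMIs were kept. UMIs were summed per library and divided by its total (CPM). Ratios carry exact conditional binomial 95% intervals and shares Clopper-Pearson intervals, for counting error only. Shares were taken in cells thinned once to 3000 UMIs, which left out 208, 125, 218 and 330 shallower cells. Doublets were not removed; leaving out the deepest 5% of cells was an alternative. The method was tested on simulated data.

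The members and lists were chosen with earlier results of these data known. Named genes are all 8 members, the 2 highest and 2 lowest related genes per comparison with Mx, and the 3 genes nearest in pattern to each of the 2 widest-ranging members with a mean of 20 CPM. Other genes named from counts of related genes (Hells, Mdh1, Mdh2 and Sucla2) were chosen after their values were seen, and the values of Ogt in Flt3-ITD likewise. Alternatives were TMM scaling (edgeR 4.0.16, R 4.3.3), a total without mitochondrial and ribosomal protein genes, other folds, floors and filters, S phase-poor cells, and cells of other lineages or 1 sex left out or alone. Leaving out cells with T-lineage, B, erythroid or megakaryocyte markers, or megakaryocyte markers alone, was chosen after seeing the data. Coordinates are from GENCODE M21, where 25415 of 26687 symbols were found. Scripts used Python 3.11.15, numpy 2.4.6, scipy 1.17.1 and pandas 2.3.3.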

Additional observations from a re-analysis of the deposited data

How the results depend on the processing

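No paired analysis was possible because each genotype has 1 library. Tet1 stayed lower than Mx in all 3 mutants under all 12 settings that changed its values. The median log2 ratio to Mx over all genes moved from -0.06, -0.10 and 0.14 to 0.08, 0.04 and 0.11 under TMM scaling and to -0.11, -0.14 and -0.06 with a total without mitochondrial and ribosomal protein genes. TMM scaling, a floor of 20 CPM, the deepest 5% of cells left out, T-lineage-marked cells left out, male cells and female cells each gave 1 lower member in NPMc+ against Mx, Tet1; so did the setting without all marked lineages, where the member was Dnmt1 and Tet1 was 1.38-fold lower. There Tet2 turned to log2 0.013 in NPMc+, but 12.7% to 26.0% of cells remained, since granule markers are widespread. In NPMc+/Flt3-ITD against Mx, 1 higher member, Idh1, was left with the total without mitochondrial and ribosomal protein genes, without T-lineage-marked cells, without all marked lineages and without the T-lineage, B, erythroid and megakaryocyte-marked cells; 0 lower were left without T-lineage-marked cells or all marked lineages. S phase-poor cells gave 2 higher, without Dnmt3b, and TMM scaling left Idh2 just short of 1.5-fold higher. Female cells gave 0 higher and 2 lower, Tet1 and Tet2, from only 29 and 12 UMIs in NPMc+/Flt3-ITD. Against Flt3-ITD, male cells, female cells, the setting without all marked lineages and the 1 without the 4 marker sets gave 2 higher. The members were not the same: they were Dnmt3b and Idh1 in male cells, but Dnmt1 and Idh1 in female cells. At 2-fold, 1 lower member remained in NPMc+, 0 in Flt3-ITD, and 0 higher and 0 lower in NPMc+/Flt3-ITD; against NPMc+ 1 was higher and against Flt3-ITD 0. Of 40 ratios, the sign was that of the values given in 35 under TMM scaling, 40 with all deposited barcodes, 38 in male, 30 in female cells and 31 without all marked lineages. Depth limits Tet2 most, with at most 285 UMIs per library. The cause of these changes was not tested.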
